A study of Mus musculus with 6 samples.

Results

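The genes of glycolysis and glycogen metabolism were described here in the hindlimb gastrocnemius (GAS) muscles of Kvβ2 knockout (KO) and wildtype (WT) mice. The set holds 39 genes of glucose uptake, glycolysis, and glycogen synthesis and breakdown, out of 37979 genes in the deposited table. These genes were chosen by gene symbol, with earlier results of these data known. The table held 38 of them under the symbol of the list, and *Pkm* was found through its gene identifier, since the table names it *Pkm2*. RNA-seq was performed on the GAS muscles of 3 WT and 3 KO male mice, 20 weeks of age and untreated, with 1 library per mouse and replicates numbered 1, 7 and 8 in both groups. The KO mice lack *Kcnab2*, the gene of the Kvβ2 subunit of voltage-gated potassium channels, in every tissue from conception on, and both genotypes came from crosses of Kvβ2+/- parents. A whole muscle was sequenced, so fewer cells of a type and less RNA per cell cannot be told apart.

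Muscle takes up glucose through transporters of the plasma membrane, traps it as glucose 6-phosphate with hexokinase, and either stores it as glycogen or breaks it down to pyruvate and lactate. Fast-twitch fibers, which make up most of the mouse GAS, are rich in glycogen and glycolytic enzymes and use them for short, intense contractions, whereas slow-twitch fibers rely more on oxidation. Many steps have one isozyme that is typical of adult muscle and another that is expressed in most tissues, which is why the members are given below step by step and isozyme by isozyme.

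The authors deposited FPKM (fragments scaled to transcript length and library size), which allow levels to be compared between genes. Counts were not analysed here, and the steps of whole fragments in low FPKM values gave an estimated depth of 14910000 to 19390000 fragments in the KO and 20510000 to 21480000 in the WT libraries. One fragment on a kilobase of transcript was therefore worth 0.0466 to 0.0671 FPKM. The WT replicates 1, 7 and 8 held 0.233, 0.10 and 0.110 FPKM of *Kcnab2*, KO replicate 7 held 0.0151 FPKM, and the gene was listed at 0 in the other two KO libraries. Values of the libraries are given below in the order of replicates 1, 7 and 8. Muscle genes that define the tissue were abundant as a sum in each library. The summed FPKM of *Ckm*, *Acta1*, *Mb*, *Des*, *Ttn* and *Neb* was 11857 to 19084 in WT and 23949 to 26988 in KO muscle. *Ttn* was listed at 0 in the 3 WT libraries and at 151 to 190 FPKM in KO muscle. None of the 39 members was listed at 0 in any library. WT replicate 1 stood at an edge most often and was the lowest of the 6 libraries for 18 of the 39 members.

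No member passed the test for a difference between the genotypes. Of the 38 members with a mean of at least 0.5 FPKM, 0 had an adjusted p under 0.05 (limma on log2(FPKM + 0.1), Benjamini-Hochberg adjustment over 12334 genes), where 0.324% of all tested genes did (0.251% higher and 0.073% lower in KO muscle). Nearly all calls over all genes were lost when genes listed at 0 in a library were left out, and no member was listed at 0. At an unadjusted p under 0.05, 11 members were higher in KO muscle, where 15.3% of all tested genes were, and 2 members were lower, where 10.9% were. Together these were 13 members, beside 26.2% of all tested genes, and the count was 6 without WT replicate 7 and 8 without KO replicate 8. The share of all tested genes was not counted with a library left out, so these lower counts have no background beside them. With limma's array weights, which let noisy libraries count less, 13 of the 38 members and 3147 of the 12334 tested genes had an adjusted p under 0.05. A positive log2 fold change was seen for 24 of the 38 members and for 51.0% of all tested genes. The KO range lay wholly above the WT range for 12 members (18.3% of all tested genes) and wholly under it for 4 members (16.2% of all tested genes). The median log2 fold change was 0.16 over the tested members and 0.01 over all tested genes, and the former was 0.09 without KO replicate 1 and 0.24 without KO replicate 7. The member that fell below the filter was *Aldoc*.

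**Figure D1:**
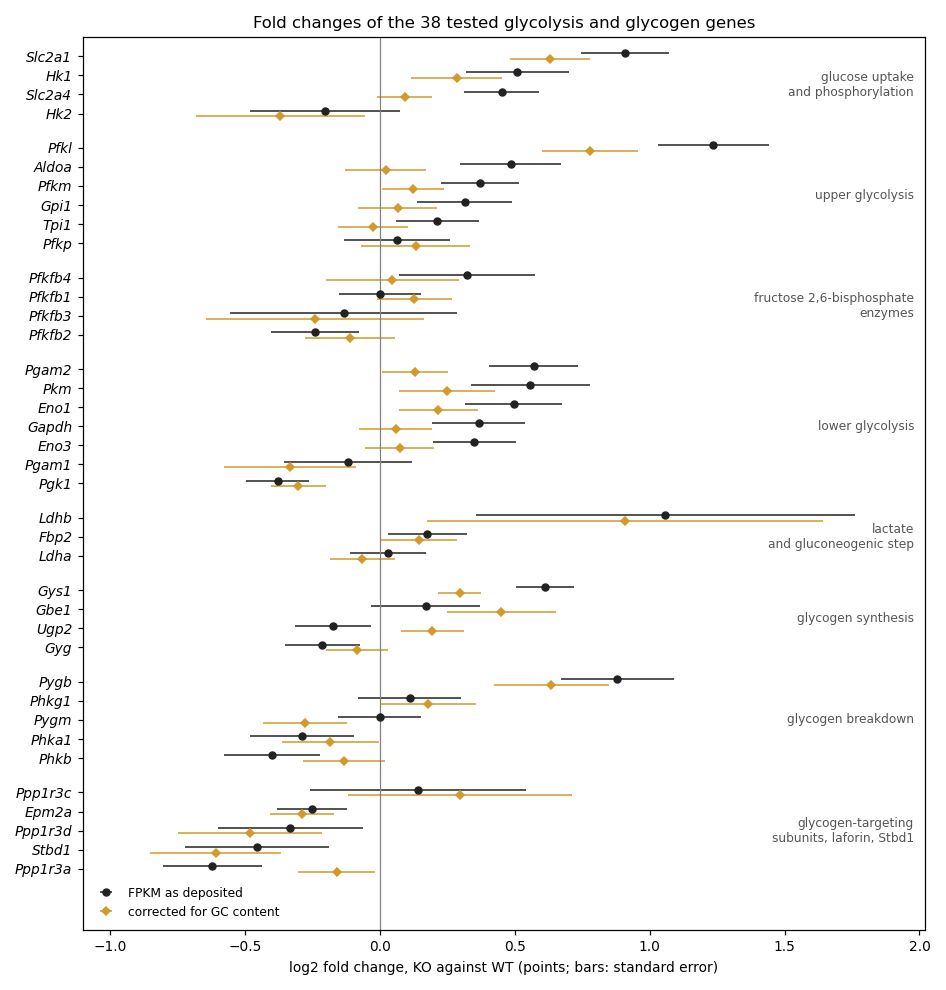
Log2 fold change of KO against WT for the 38 tested members, grouped by role, with the standard error as a bar. Black circles are FPKM as deposited and yellow diamonds are values after each library was corrected for GC content. *Pfkl* lies farthest from 0 among members with a standard error under 0.5 (1.24, and 0.78 after correction), and *Aldoa*, *Gapdh* and *Eno3* lie within 0.1 of 0 after the correction.

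The size of a member's fold change went along with the GC content of its transcripts. Spearman's rho between the 2 was 0.72 across the 38 tested members and 0.70 across all 11985 tested genes of known GC content, both given as a description since genes share their libraries. Of the 16 members at 54% GC or more, 15 had a positive log2 fold change. Their median was 0.47, and that of all 3364 tested genes in this range was 0.43. Among the 4 members under 45% GC the median was -0.29, beside -0.30 for all 2609 tested genes there. Between 50% and 54% GC the median was -0.13 over 10 members and 0.11 over 2695 genes. When each library was corrected for GC content, the median log2 fold change of the members was 0.07. Then 4 members were higher in KO muscle at an unadjusted p under 0.05 (*Pfkl*, *Slc2a1*, *Gys1* and *Pygb*; 5.77% of the 11985 genes) and 3 members were lower (*Pgk1*, *Epm2a* and *Stbd1*; 5.31% of them). Again 0 members passed an adjusted p under 0.05, and 0.117% of the 11985 genes did. The correction also takes out any difference between the genotypes that goes along with GC content. The source of this trend was not tested.

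**Figure D2:**
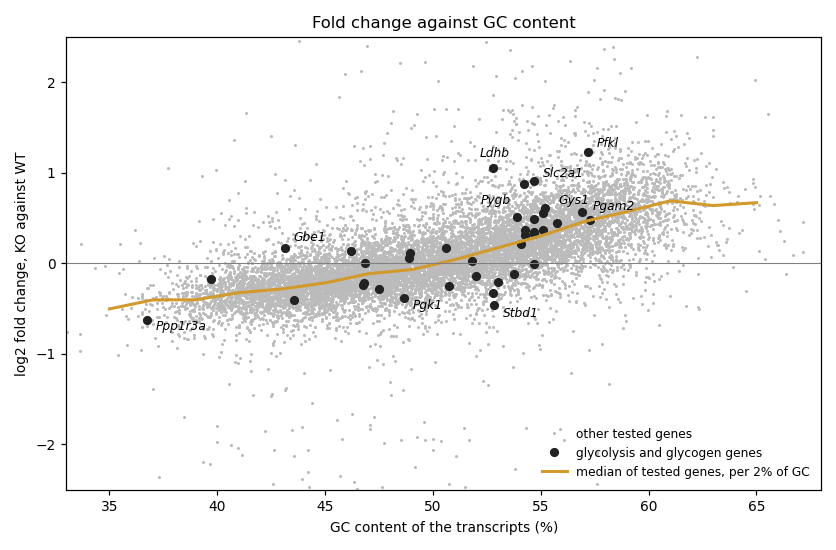
Log2 fold change of KO against WT (vertical axis) against the GC content of the transcripts (horizontal axis, percent) for the tested genes in grey and the 38 tested members in black. The yellow line is the median of all tested genes per 2% of GC, genes outside the axes are not drawn, and *Pfkl* (1.24), *Slc2a1* (0.91) and *Ldhb* (1.06) stand above the line while *Stbd1* (-0.45) stands under it.

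Promoter sequences are shown for *Pfkl*, *Slc2a1* and *Gys1*, the 3 members with the lowest p, and for *Ppp1r3a*, the member with the lowest p among those with a negative fold change. Each run is the 250 bases before the RefSeq start site in GRCm38.p6, read 5′ to 3′ on the strand of the gene. The gene coordinates given below are from GENCODE M21, where *Pfkl* starts farther upstream. The *Pfkl* window therefore lies inside that gene span, and so does the end of the *Slc2a1* window. Capitals mark the core of the hypoxia response element (ACGTG), the E-box (CACGTG, which contains that core) and the GC box (GGGCGG), searched on both strands. They lie at chr10:78009808-78010057 (minus strand, *Pfkl*), chr4:119108495-119108744 (plus strand, *Slc2a1*), chr7:45434589-45434838 (plus strand, *Gys1*) and chr6:14755275-14755524 (minus strand, *Ppp1r3a*).
Pfkl: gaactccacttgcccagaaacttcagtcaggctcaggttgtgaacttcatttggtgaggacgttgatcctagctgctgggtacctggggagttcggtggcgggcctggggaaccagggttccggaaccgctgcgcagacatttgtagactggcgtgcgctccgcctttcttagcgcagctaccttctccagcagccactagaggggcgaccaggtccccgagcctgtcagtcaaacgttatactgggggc
Slc2a1: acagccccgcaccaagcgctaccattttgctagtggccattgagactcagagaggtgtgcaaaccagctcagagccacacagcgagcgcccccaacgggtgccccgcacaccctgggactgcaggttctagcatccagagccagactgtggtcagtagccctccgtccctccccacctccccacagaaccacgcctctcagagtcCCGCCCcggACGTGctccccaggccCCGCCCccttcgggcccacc
Gys1: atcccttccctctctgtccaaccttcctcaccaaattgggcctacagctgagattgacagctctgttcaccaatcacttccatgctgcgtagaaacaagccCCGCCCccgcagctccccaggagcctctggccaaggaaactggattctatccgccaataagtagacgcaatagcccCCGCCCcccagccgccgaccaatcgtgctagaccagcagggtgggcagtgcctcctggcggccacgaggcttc
Ppp1r3a: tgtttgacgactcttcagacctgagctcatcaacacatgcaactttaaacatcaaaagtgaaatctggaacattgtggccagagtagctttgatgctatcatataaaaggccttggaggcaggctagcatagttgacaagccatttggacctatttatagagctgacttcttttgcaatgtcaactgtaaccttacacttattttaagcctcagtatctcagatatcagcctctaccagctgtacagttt
The *Slc2a1* window holds 1 ACGTG core and 2 GC boxes, the *Gys1* window holds 2 GC boxes, and the windows of *Pfkl* and *Ppp1r3a* hold none of the 3 motifs. The GC content is 66.4% for *Slc2a1*, 60.0% for *Gys1*, 59.2% for *Pfkl* and 40.4% for *Ppp1r3a*. RefSeq windows were found for 38 member genes, 56 windows in all, of which 37.5% hold ACGTG, 12.5% hold CACGTG and 48.2% hold GGGCGG. Among all 32851 windows of this length the shares are 16.6%, 6.02% and 32.7%. A gene can have several windows, and the windows were not matched for GC content or expression. The shares were not tested against each other. A match describes letters and not binding.

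For glucose uptake, both transporters were higher in KO muscle in every library, without passing the threshold. *Slc2a4* (ENSMUSG00000018566, chromosome 11, 69942539 to 69948188), which encodes the insulin-responsive transporter GLUT4, measured 143, 183 and 194 FPKM in WT against 236, 219 and 249 FPKM in KO muscle. Its log2 fold change was 0.45 (standard error, SE, 0.14, adjusted p = 0.109). Every KO library exceeded every WT library (p = 0.1 in a two-sided exact permutation test, and 3 against 3 allow no smaller value). After correction for GC content the log2 fold change was 0.09. *Slc2a1* (ENSMUSG00000028645, chromosome 4, 119108711 to 119137983), which encodes the widely expressed transporter GLUT1, was far lower and measured 1.46, 1.51 and 1.64 FPKM in WT against 2.59, 3.47 and 2.91 FPKM in KO muscle. That is a 1.95-fold difference of the means, a log2 fold change of 0.91 (SE 0.16, adjusted p = 0.0667). Its libraries did not overlap between the genotypes either, and the value was 0.63 after correction for GC content.

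Neither hexokinase passed the threshold. The broadly expressed *Hk1* (ENSMUSG00000037012, chromosome 10, 62268855 to 62379908) measured 1.18, 1.42 and 1.45 FPKM in WT against 1.66, 2.32 and 1.94 FPKM in KO muscle (log2 fold change 0.51, SE 0.19, adjusted p = 0.155). After correction for GC content the log2 fold change of *Hk1* was 0.28. The insulin-regulated muscle isozyme *Hk2* measured 141, 75.6 and 63.3 FPKM in WT against 82.4, 66.9 and 79.8 FPKM in KO muscle. WT replicate 1 alone set its direction, since the log2 fold change was -0.20 with it and 0.14 without it.

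Upper glycolysis had a positive log2 fold change in 6 of 6 tested members, with a median of 0.34, and 0.09 after correction for GC content. The summed level of its 7 genes was 8508 to 13015 FPKM in WT and 13685 to 15390 FPKM in KO muscle. Most of this was *Aldoa*, the muscle aldolase and the most abundant member. *Aldoa* (ENSMUSG00000030695, chromosome 7, 126795234 to 126800751) measured 6418, 8864 and 10151 FPKM in WT against 11757, 10937 and 12297 FPKM in KO muscle. The genotypes did not overlap, but the log2 fold change of 0.48 (SE 0.19, adjusted p = 0.161) was 0.02 after correction for its GC content of 57.3%.

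Phosphofructokinase, the committed step of glycolysis, has a muscle, a liver and a platelet subunit. The muscle subunit *Pfkm* measured 843, 1028 and 1143 FPKM in WT against 1369, 1177 and 1333 FPKM in KO muscle (log2 fold change 0.37, SE 0.14, adjusted p = 0.161). After correction for GC content the log2 fold change of *Pfkm* was 0.12. *Pfkl* (ENSMUSG00000020277, chromosome 10, 77986947 to 78010083), the liver subunit, measured 0.839, 1.08 and 0.947 FPKM in WT against 1.92, 2.86 and 2.43 FPKM in KO muscle. This 2.52-fold difference of the means was the largest among the 38 tested members, a log2 fold change of 1.24 (SE 0.21, adjusted p = 0.0667). The 2 ranges lay well apart, and the log2 fold change ranged from 1.11 to 1.38 when single libraries were omitted. At this low level it was 0.79 with a pseudocount of 1. It was 0.78 after correction for GC content (adjusted p = 0.257). The platelet subunit *Pfkp* overlapped, at 2.06 to 2.45 FPKM in WT and 1.95 to 3.10 FPKM in KO muscle. *Gpi1*, the glucose 6-phosphate isomerase, overlapped as well, at 300.5 to 441 FPKM in WT and 402 to 525 FPKM in KO muscle (log2 fold change 0.31, adjusted p = 0.288). So did the triose phosphate isomerase *Tpi1*, at 943 to 1277 FPKM in WT and 1162 to 1466 FPKM in KO muscle (log2 fold change 0.21, adjusted p = 0.405). *Aldoc*, the aldolase of brain, was at 0.0865 to 0.306 FPKM in WT and 0.130 to 0.554 FPKM in KO muscle, so it rested on few fragments.

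**Figure D3:**
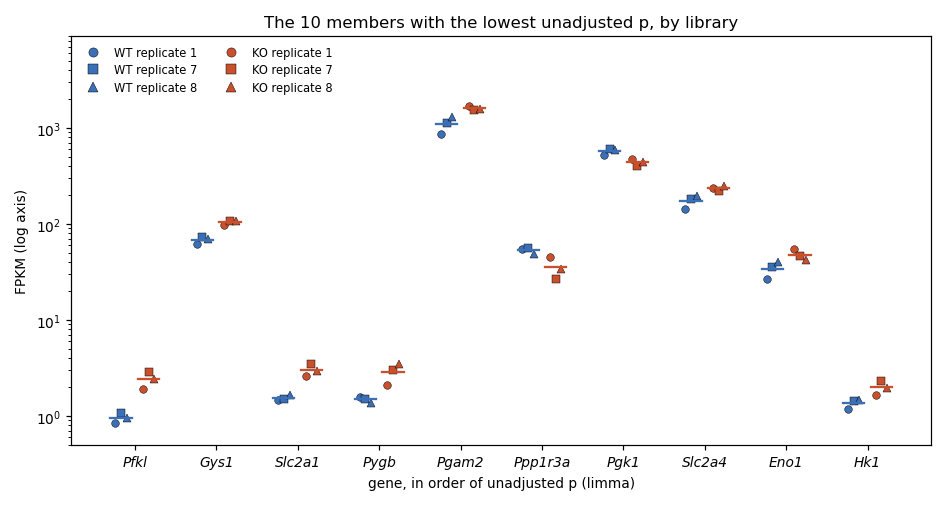
FPKM on a log axis of the 10 members with the lowest unadjusted p, in order of p, for each of the 3 WT (blue) and 3 KO (red) libraries, with the group mean as a line. The genotypes do not overlap for any of the 10, and *Pgk1* and *Ppp1r3a* are the ones with lower values in KO muscle. The 10 were picked by p in these same libraries, so the absence of overlap is not a separate result. Of all tested genes, 18.3% lay wholly higher and 16.2% wholly lower in KO muscle.

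The bifunctional enzymes that make and remove fructose 2,6-bisphosphate, the strongest activator of phosphofructokinase, overlapped between the genotypes in all 4 members. *Pfkfb1*, the isozyme of liver and muscle, was at 29.4 to 40.7 FPKM in WT and 30.6 to 38.2 FPKM in KO muscle, a ratio of the means of 0.995. *Pfkfb3*, an inducible isozyme, varied within each genotype, with 40.7, 99.6 and 89.9 FPKM in WT and 48.8, 50.9 and 111 FPKM in KO replicates 1, 7 and 8. Its coefficient of variation was 41.1% in WT and 50.4% in KO muscle. *Pfkfb4* and *Pfkfb2* had log2 fold changes of 0.32 and -0.24 (adjusted p = 0.437 and 0.376).

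In lower glycolysis, 5 of 7 members had a positive log2 fold change, and *Pgk1* went the other way. *Pgam2* (ENSMUSG00000020475, chromosome 11, 5801640 to 5803733), the muscle phosphoglycerate mutase, measured 859, 1127 and 1306 FPKM in WT against 1692, 1543 and 1584 FPKM in KO muscle. The difference was 1.46-fold, a log2 fold change of 0.57 (SE 0.16, adjusted p = 0.101), and 0.13 after correction for GC content. *Pkm*, which encodes muscle pyruvate kinase, measured 589, 879 and 1072 FPKM in WT against 1356, 1096 and 1193 FPKM in KO muscle. Its log2 fold change was 0.56 (SE 0.22, adjusted p = 0.166), and 0.25 after correction for GC content. For both genes the lowest KO library exceeded the highest WT library, by a small margin for *Pkm*.

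*Pgk1* (ENSMUSG00000062070, chromosome X, 106187100 to 106203699), which encodes phosphoglycerate kinase, the first ATP-forming enzyme of glycolysis, measured 522, 599 and 587 FPKM in WT against 474, 397 and 445 FPKM in KO muscle. The KO range lay wholly under the WT range, a log2 fold change of -0.38 (SE 0.12, adjusted p = 0.109). After correction for GC content it was -0.30 (SE 0.10, adjusted p = 0.365), so this member kept most of its difference. Of the enzymes just before and after it in the pathway, *Gapdh* and *Pgam2* had positive log2 fold changes, and the low *Pgam1* had one of -0.12.

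The muscle enolase *Eno3* measured 2165, 2630.3 and 3007 FPKM in WT against 3594, 3014 and 3277 FPKM in KO muscle (log2 fold change 0.35, SE 0.15, adjusted p = 0.198). The broadly expressed enolase *Eno1* (ENSMUSG00000063524, chromosome 4, 150236721 to 150248879) measured 26.4, 35.6 and 39.8 FPKM in WT against 55.1, 45.8 and 41.8 FPKM in KO muscle (log2 fold change 0.50, adjusted p = 0.148). After correction for GC content the log2 fold changes were 0.07 for *Eno3* and 0.22 for *Eno1*. *Gm5506*, a copy of *Eno1* that can share its fragments, was at 0.662 to 2.20 FPKM in WT and 3.45 to 3.95 FPKM in KO muscle (log2 fold change 1.58, adjusted p = 0.0771). *Pgam1*, the broadly expressed phosphoglycerate mutase, was at 3.68 to 4.86 FPKM in WT and 3.31 to 5.80 FPKM in KO muscle and did not separate the genotypes.

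*Gapdh* was the reference gene of the quantitative PCR in this study, so its level is given in full. It measured 2332, 3068 and 3559 FPKM in WT against 3989, 3519.8 and 3889.7 FPKM in KO muscle. The highest WT library exceeded the lowest KO library by little, and the means differed 1.27-fold a log2 fold change of 0.37 (SE 0.17, adjusted p = 0.221). Without WT replicate 1 the log2 fold change was 0.20, the lowest with any library left out, and after correction for GC content it was 0.06. The genome holds many processed copies of *Gapdh*, which can take up some of its fragments.

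Lactate dehydrogenase joins M subunits, encoded by *Ldha* and typical of glycolytic fibers, with H subunits, encoded by *Ldhb* and typical of heart and slow fibers. *Ldha* was nearly equal between the genotypes, at 1205 to 1597 FPKM in WT and 1291 to 1541 FPKM in KO muscle. *Ldhb* had the widest spread of the tested members, with 123, 68.1 and 20.3 FPKM in WT against 52.6, 173 and 169 FPKM in KO muscle. The *Ldhb* log2 fold change of 1.06 (SE 0.70, adjusted p = 0.367) was within this spread. WT replicate 8 decided most of it, since the value was 0.34 without that library, and it was 1.63 without WT replicate 1.

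The libraries fell in almost the same order by *Ldhb* as by genes of slow fibers. The summed FPKM of *Myh7*, *Myl2*, *Myl3*, *Tnni1*, *Tnnt1*, *Tnnc1*, *Atp2a2* and *Tpm3* was 1005, 703 and 47.6 in WT and 369.5, 1165 and 2009 in KO replicates 1, 7 and 8. WT replicate 8 was lowest and KO replicates 7 and 8 were highest on both measures. For 0 of these 8 markers did the genotypes separate, and *Myh7*, the slow myosin, was at 0.0513 FPKM in WT replicate 8 and at 15.2 to 77.4 FPKM elsewhere. The part of the slow-fiber genes in the level of *Ldhb* was not tested. *Fbp2*, the fructose bisphosphatase of muscle, was at 18.8 to 22.4 FPKM in WT and 19.01 to 26.3 FPKM in KO muscle.

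**Figure D4:**
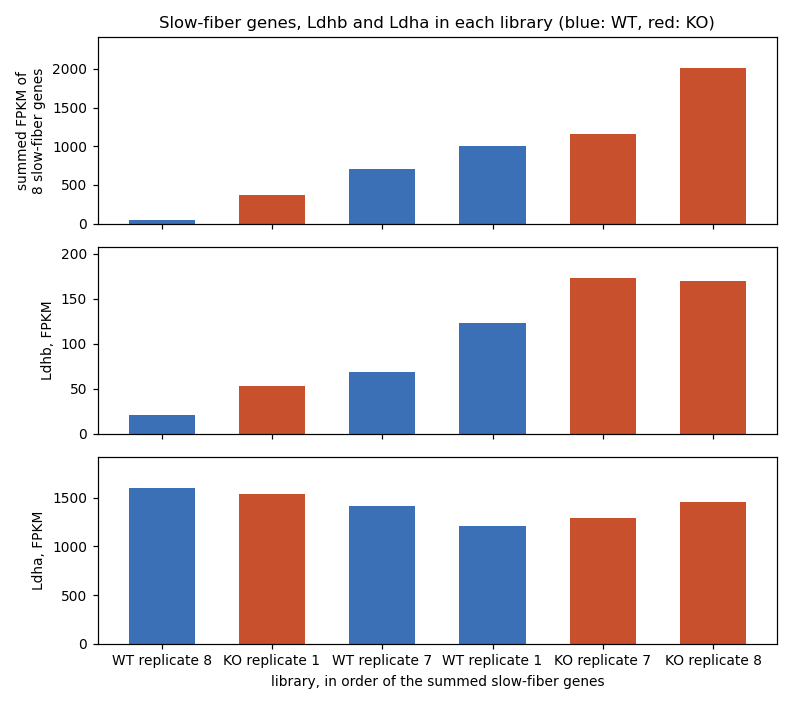
Summed FPKM of 8 slow-fiber genes, FPKM of *Ldhb* and FPKM of *Ldha* in each library, in order of the slow-fiber sum, with WT in blue and KO in red. *Ldhb* is lowest in WT replicate 8 (20.3) and highest in KO replicates 7 and 8 (173 and 169), while *Ldha* stays between 1205 and 1597.

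Glycogen synthesis held the member with the smallest standard error. *Gys1* (ENSMUSG00000003865, chromosome 7, 45434844 to 45456619), which encodes muscle glycogen synthase, measured 61.6, 72.1 and 69.6 FPKM in WT against 97.3, 108 and 106 FPKM in KO muscle. The means were 67.8 ± 5.48 FPKM (SD, n = 3) and 104 ± 5.50 FPKM (SD, n = 3), a 1.53-fold difference. The log2 fold change was 0.61 (SE 0.11, adjusted p = 0.0667), with 0.54 to 0.66 when each library was left out, and 0.30 (SE 0.08, adjusted p = 0.289) after correction for GC content. The *Gys1* gene overlaps *Ruvbl2* on the opposite strand, which was at a mean of 5.67 FPKM. The other 3 genes of the step overlapped between the genotypes. *Gyg*, the glycogenin that primes the chain, was at 229 to 263 FPKM in WT and 176 to 243 FPKM in KO muscle. *Ugp2*, which makes UDP-glucose, and the branching enzyme *Gbe1* had log2 fold changes of -0.17 and 0.17, and of 0.20 and 0.45 after correction for GC content.

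Glycogen breakdown showed no common direction. *Pygm*, the muscle phosphorylase and one of the most abundant members, measured 2614.5, 3022 and 2855 FPKM in WT against 3287, 2328 and 2941 FPKM in KO muscle, with nearly equal means of 2831 and 2852 FPKM. The brain isozyme *Pygb* (ENSMUSG00000033059, chromosome 2, 150786735 to 150831758) measured 1.59, 1.50 and 1.36 FPKM in WT against 2.10, 3.03 and 3.49 FPKM in KO muscle. It did not overlap and had a log2 fold change of 0.88 (SE 0.21, adjusted p = 0.0781), which was 0.64 after correction for GC content.

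Phosphorylase kinase, the calcium-activated enzyme that switches phosphorylase on, had no subunit that passed the threshold. Its β subunit *Phkb* measured 362, 378 and 403 FPKM in WT against 359.8, 222 and 300.3 FPKM in KO muscle. KO replicate 1 nearly equaled WT replicate 1, so the absence of overlap rests on a small gap, and the log2 fold change of -0.40 (adjusted p = 0.201) was -0.13 after correction for its GC content of 43.6%. The α subunit *Phka1* and the catalytic subunit *Phkg1* overlapped, with log2 fold changes of -0.29 and 0.11 (adjusted p = 0.374 and 0.737). The *Phkg1* gene overlaps *Chchd2* on the same strand, which was at a mean of 226 FPKM, so its level is uncertain.

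Among genes that bind glycogen or bring protein phosphatase 1 to it, 4 of 5 had a negative log2 fold change, with a median of -0.33, and -0.29 after correction for GC content. *Ppp1r3a* (ENSMUSG00000042717, chromosome 6, 14713977 to 14755274), the muscle subunit that targets the phosphatase to glycogen and thereby activates glycogen synthase, measured 54.7, 55.6 and 48.9 FPKM in WT against 44.6, 26.7 and 34.2 FPKM in KO muscle. The KO range lay wholly under the WT range, a log2 fold change of -0.62 (SE 0.18, adjusted p = 0.105). Its GC content of 36.7% was the lowest of the members, and the log2 fold change was -0.16 after the correction.

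*Epm2a*, which encodes the glycogen phosphatase laforin, measured 43.8, 41.8 and 41.2 FPKM in WT against 38.7, 29.8 and 38.8 FPKM in KO muscle. It did not overlap and its log2 fold change was -0.25 (adjusted p = 0.260), and -0.29 after correction for GC content. *Stbd1*, which tethers glycogen to membranes, overlapped, at 15.8 to 30.9 FPKM in WT and 13.8 to 21.4 FPKM in KO muscle, with log2 fold changes of -0.45 before and -0.61 after the correction. *Ppp1r3c*, another glycogen-targeting subunit, ranged from 84.2 to 284 FPKM within WT muscle alone and from 144 to 207 FPKM in KO muscle. *Ppp1r3d* was near 1 FPKM, at 0.805 to 1.05 FPKM in WT and 0.538 to 0.879 FPKM in KO muscle.

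Setting isozymes of one step against each other within a library removes the scale of the library. It does not remove a trend with GC content where the isozymes differ in it, and the shares were not corrected for GC content. The isozymes not typical of muscle, which are broadly expressed or typical of brain, heart or slow fibers, each made up at most 11.8% of the summed FPKM of the step in any library, and 9 such shares were compared. *Pfkl* made up 0.0991%, 0.105% and 0.0826% of the phosphofructokinase FPKM in WT and 0.140%, 0.242% and 0.182% in KO replicates 1, 7 and 8. *Pygb* made up 0.0607%, 0.0497% and 0.0477% of the phosphorylase FPKM in WT and 0.0639%, 0.130% and 0.118% in KO muscle. *Slc2a1* made up 1.01%, 0.817% and 0.842% of the transporter FPKM in WT and 1.08%, 1.56% and 1.15% in KO muscle. These 3 shares were higher in every KO library than in any WT library (p = 0.1 in the exact permutation test, and 0.3 adjusted over the 9 shares). The gap was narrow for *Pygb* and *Slc2a1* in KO replicate 1. The shares of *Hk1*, *Pfkp*, *Aldoc*, *Pgam1*, *Eno1* and *Ldhb* overlapped between the genotypes, with exact p-values of 0.2 to 0.7.

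**Figure D5:**
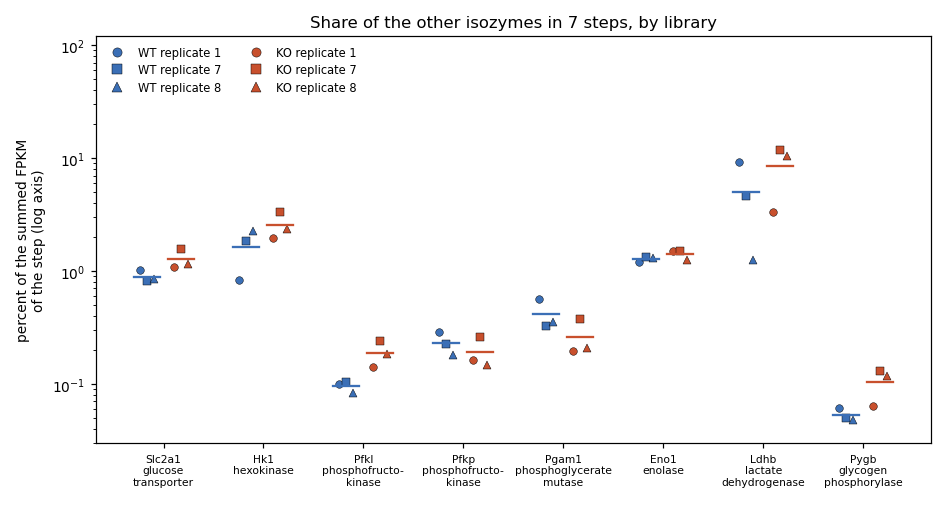
Share of 8 isozymes not typical of muscle in the summed FPKM of the step, in percent on a log axis, for each WT (blue) and KO (red) library with the group mean as a line. The KO range lies above the WT range for *Slc2a1*, *Pfkl* and *Pygb*, and *Ldhb* spreads most, from 1.25% to 11.8%.

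Of the 11 isozymes typical of muscle, 8 had a positive log2 fold change with a median of 0.18, and of the 8 other tested isozymes, *Ldhb* included, 7 did with a median of 0.70. After correction for GC content the medians were 0.07 and 0.46. Genes of the other cell types in a muscle were measured beside them. Endothelial markers summed to 39.1 to 44.2 FPKM in WT and 39.3 to 51.5 FPKM in KO muscle, leukocyte and macrophage markers to 2.64 to 7.75 and 5.77 to 12.04 FPKM, and Schwann cell markers to 12.5 to 62.2 and 14.2 to 87.2 FPKM. Adipocyte markers summed to 233 to 440.1 FPKM in WT and 298 to 593 FPKM in KO muscle, red blood cell markers to 242 to 314 and 266 to 546.5 FPKM, and fibroblast and tendon markers to 377 to 545 and 360.4 to 472 FPKM. Each of these 6 sums overlapped between the genotypes, but a few abundant genes such as *Fabp4*, *Dcn* and *Hbb-bs* carry most of a sum. Of the 30 markers taken singly, 5 lay higher in every KO library than in any WT library. This share was no higher than the 18.3% of all tested genes. Wholly lower in KO muscle were 0 markers, beside 16.2% of all tested genes. *Plin1*, a lipid droplet protein of adipocytes, was at 0.138 to 0.4995 FPKM in WT and 1.14 to 7.37 FPKM in KO muscle (11.9-fold, adjusted p = 0.0852). *Cfd*, the adipocyte protein adipsin, was at 3.92 to 17.8 FPKM in WT and 24.6 to 89.0 FPKM in KO muscle (4.38-fold, adjusted p = 0.107). The α-globin genes *Hba-a1* and *Hba-a2* differed 2.55-fold and 2.10-fold (adjusted p = 0.0750 and 0.0954), and the endothelial receptor *Tie1* differed 1.78-fold (adjusted p = 0.0750). None of the 5 passed the threshold. After correction for GC content the log2 fold change was 2.28 in place of 2.79 for *Plin1* and 1.56 in place of 2.11 for *Cfd*. For *Hba-a1* it was 0.83 in place of 1.31, and for *Hba-a2* 0.56 in place of 1.02. The β-globin genes *Hbb-bs* and *Hbb-bt* overlapped, with ratios of the means of 1.22 and 1.00. KO replicate 7 had the highest endothelial, leukocyte, Schwann cell and adipocyte sums. The red blood cell sum was highest in KO replicate 8, and the fibroblast and tendon sum in WT replicate 1. KO replicate 7 also had the highest *Pfkl*, *Slc2a1*, *Hk1*, *Pfkp*, *Pgam1*, *Aldoc* and *Ldhb*, whereas *Pygb* was highest in KO replicate 8 and *Eno1* in KO replicate 1. The part of these cells in the levels of the isozymes was not tested. The summed FPKM of 10 fast-fiber genes overlapped as well, at 30877 to 42825 in WT and 34788 to 44570 in KO muscle, with *Myh4*, *Tnnt3* and *Atp2a1* listed at 0 in each library. The sum of the 6 muscle genes named above lay wholly higher in KO muscle, as did 4 of them singly (18.3% of all tested genes). Of these, *Ckm*, *Acta1* and *Des* had log2 fold changes of 0.81, 0.83 and 0.71, and *Ttn* rested on its listed 0 in WT. After correction for GC content the 3 values were 0.41, 0.36 and 0.41. None of the 3 had an adjusted p under 0.05, and *Mb* and *Neb* overlapped.

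Other genes of the pathway, 49 in a list of transporters, isozymes, shuttles and regulators, were measured beside the members. Of these, 37 were tested and 0 had an adjusted p under 0.05, with 10 higher (27.0%, beside 15.3% of all tested genes) and 5 lower (13.5%, beside 10.9%) in KO muscle at an unadjusted p under 0.05, and a median log2 fold change of 0.05. The lowest p belonged to *Pgp*, a phosphatase that removes side products of glycolysis, at 6.87 to 8.10 FPKM in WT and 9.79 to 13.1 FPKM in KO muscle (log2 fold change 0.62, adjusted p = 0.0750). *Epm2aip1*, a partner of laforin, was at 5.37 to 5.54 FPKM in WT and 3.02 to 4.17 FPKM in KO muscle (log2 fold change -0.59, adjusted p = 0.0800). *Eno2*, the enolase of neurons, was at 0.198 to 0.425 FPKM in WT and 0.806 to 0.991 FPKM in KO muscle (log2 fold change 1.44, adjusted p = 0.0852), and at these low levels the log2 fold change was 0.57 with a pseudocount of 1. *Ppp1cc*, a catalytic subunit of protein phosphatase 1, was at 74.5 to 77.7 FPKM in WT and 51.6 to 61.7 FPKM in KO muscle (log2 fold change -0.41, adjusted p = 0.0885). None of the 4 overlapped between the genotypes, but they were picked by p in these same libraries, so this is not a separate result. Of all tested genes, 18.3% lay wholly higher and 16.2% wholly lower in KO muscle. After correction for GC content the log2 fold changes of the 4 were 0.20, -0.27, 1.11 and -0.33 in the order given.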

How the data were processed

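RNA-seq libraries were prepared with the TruSeq Stranded mRNA kit from total RNA of GAS muscles and sequenced as paired-end reads of 150 bases. Per the labels and the study's methods, TopHat was used for alignment to GRCm38 and Cufflinks for the FPKM of each gene, which the authors deposited for each library. Tool versions, annotation release and the use of strand in counting are not given in the sources used here. Of the 39 members, 15 overlap another annotated gene, and such genes and near-identical copies can share fragments.

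The deposited FPKM were filtered to 12334 genes whose mean reached 0.5 FPKM, transformed to log2(FPKM + 0.1) and fitted with limma (version 3.58.1, R version 4.3.3), using a variance trend and Benjamini-Hochberg adjustment. Log2 fold changes therefore come out too small for the lowest genes. Single values were compared by exact permutation tests, two-sided. Depth was estimated from low FPKM of genes with 1 annotated transcript, and 89.9% to 94.3% of these values were whole within 0.15 of a fragment. Gene coordinates, GC content and length came from GENCODE M21 on GRCm38, and GC content was known for 97.2% of tested genes. The GC correction subtracted from each library a loess curve (span 0.3) of its deviation from the mean of the libraries. The limma and loess steps were tested on simulated data. At most 1 of 14983 genes had identical values in any 2 libraries. Each library came from its own mouse and counted as a replicate.

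The members and lists were chosen with earlier results of these data known. Values in each library, or their range, are given for the 10 members with the lowest p, for *Gapdh* and for isozyme pairs. The same holds for the 4 other pathway genes with the lowest p. *Gm5506*, *Phkb*, *Pfkfb3*, *Epm2a*, *Pkm*, *Gpd1*, *Gsk3a*, *Ckm*, *Acta1*, *Des* and the 5 markers of other cell types were detailed after their values were seen. Quantitative PCR, histology and old mice were not analysed here. Figures were drawn with matplotlib 3.10.9.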

Additional observations from a re-analysis of the deposited data

How the results depend on the processing

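With 3 libraries per genotype, an exact test cannot go below 0.1. Of the 18 alternatives, limma's array weights changed the counts. They called 13 of the 38 tested members (10 higher and 3 lower in KO muscle) and 12 of the 37 other tested genes of the pathway. Of all 12334 tested genes they called 3147, so the setting did not single out the pathway. These weights gave WT replicate 7 a weight of 6.12 and WT replicate 1 a weight of 0.355. The 13 were *Pfkl*, *Slc2a1*, *Gys1*, *Pygb*, *Pgam2*, *Slc2a4*, *Pkm*, *Aldoa*, *Pfkm*, *Eno3*, *Pgk1*, *Ppp1r3a* and *Stbd1*. Under each of the other 17 alternatives 0 members and 0 other pathway genes were called, including other pseudocounts, filters and scaling, no variance trend, no genes listed at 0, corrections for GC content and length, and each library left out. The count over all genes was 40 in the limma fit used above, which is not a count of the study. It was 1 without genes listed at 0, 11 at a pseudocount of 1 and 13 with the replicate block. With the GC correction it was 14, without the variance trend 19 and without a filter 20. The median log2 fold change of the members stayed between 0.07 (GC correction) and 0.24 (without KO replicate 7).

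The labels do not say whether equal replicate numbers link a KO and a WT library. Deviations from the group means correlated at -0.03, -0.08 and 0.03 for numbers 1, 7 and 8. For unlike numbers they correlated at -0.07 to 0.09, so no strong shared effect of a number was seen. A shared litter or handling was not tested. With a replicate block, 0 members were called and the median log2 fold change was 0.16, and 9 members in place of 13 had an unadjusted p under 0.05. With the block and the GC correction together, 0 were called, the median was 0.07 and 4 members had an unadjusted p under 0.05. The share of all tested genes at an unadjusted p under 0.05 was not counted with the block. These counts therefore cannot tell a change in the members from a change in all genes.

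Among the 25 genes followed across the alternatives, 5 changed sign. *Hk2* was at 0.031 with array weights and *Pfkp* at -0.10. *Ldha* was at -0.066 with the GC correction, with or without the block, and at -0.021 with the length correction. With single libraries left out, *Hk2* ranged from -0.44 to 0.14, *Pfkp* from -0.12 to 0.20, *Pgam1* from -0.38 to 0.018, *Ldha* from -0.076 to 0.13 and *Pygm* from -0.11 to 0.14. Over all 38 tested members, the GC correction turned 3 (*Ldha*, *Tpi1* and *Ugp2*) and leaving out a library turned 10, which adds *Pfkfb1*, *Pfkfb3*, *Gbe1*, *Phkg1* and *Ppp1r3c*. Of the 37 other pathway genes the GC correction turned 9, among them *Gpd1* from 0.36 to -0.11 and *Gsk3a* from 0.32 to -0.25, and leaving out a library turned 8. The cause of these changes was not tested.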
